A study of Mus musculus with 2 samples.

Results

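The Kruppel-like factors and Sp1 are sequence-specific transcription factors with a shared DNA-binding domain, and 10 of their genes were described here in erythroblasts, the still nucleated forerunners of red blood cells, from the fetal liver of the mouse. The genes are Klf1, Klf2, Klf3, Klf6, Klf9, Klf10, Klf11, Klf13, Klf16 and Sp1. They were taken by gene identifier from tables that hold 43346 Ensembl genes, of which 21474 are protein coding, and all 10 were found, with 24 transcripts. The study sequenced poly(A)-selected RNA as paired ends from liver cells selected for Ter119, an antigen on the surface of maturing red cells. They were primary cells of embryos at 14.5 days, males and females pooled, with no genetic change or treatment named. There was 1 group of 2 libraries, which are called library 1 and library 2 below and which held 51190552 and 44256272 counts. They come from separate biosamples but share a donor entry, so their spread may be partly technical. A single group leaves no comparison of conditions, so the genes were described by level, transcript and difference between the libraries.

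Kruppel-like factors bind GC-rich and CACCC sequences through zinc fingers near the end of the protein, and differ in the cofactors that the rest of the protein recruits. Klf1, Klf2 and Klf6 are known mainly as activators, Klf3 recruits the corepressor CtBP, and Klf9, Klf10, Klf11, Klf13 and Klf16 recruit the corepressor Sin3. Klf1 is the factor of red cells, needed for adult beta globin and for many genes of the red cell membrane and of heme synthesis. Sp1 belongs to the sister family and binds GC boxes in the promoters of many housekeeping genes.

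The shared domain is shown first, as it is what makes these genes 1 family. Each line gives 90 coding bases that start at the linker between the first and the middle zinc finger, with the build mm10, read from GENCODE M21 transcripts. Capitals mark the match to the searched zinc finger linker motif, a degenerate pattern of 14 bases that codes for the start of that linker. The search kept to the reading frame and the coding strand, and where the motif occurred more than once, as in Klf11, the last match was used. Coordinates run over an intron in every gene except Sp1, where all 90 bases lie in exon 5.
Klf1, chr8:84903499-84904849, plus strand: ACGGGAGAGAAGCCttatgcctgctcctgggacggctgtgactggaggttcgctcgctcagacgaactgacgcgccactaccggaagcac
Klf2, chr8:72320239-72320829, plus strand: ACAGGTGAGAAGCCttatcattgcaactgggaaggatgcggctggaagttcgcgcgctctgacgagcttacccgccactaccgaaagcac
Klf6, chr13:5865341-5866724, plus strand: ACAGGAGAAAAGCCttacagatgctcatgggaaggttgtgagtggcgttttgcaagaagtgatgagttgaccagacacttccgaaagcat
Klf3, chr5:64827267-64829062, plus strand: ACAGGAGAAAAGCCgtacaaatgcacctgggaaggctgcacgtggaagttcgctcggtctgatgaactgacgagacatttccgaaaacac
Klf16, chr10:80569137-80576750, minus strand: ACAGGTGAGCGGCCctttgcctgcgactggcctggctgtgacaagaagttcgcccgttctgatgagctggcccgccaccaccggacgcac
Klf11, chr12:24655773-24660268, plus strand: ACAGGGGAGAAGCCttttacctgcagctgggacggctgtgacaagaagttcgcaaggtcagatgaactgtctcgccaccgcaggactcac
Klf13, chr7:63891712-63937970, minus strand: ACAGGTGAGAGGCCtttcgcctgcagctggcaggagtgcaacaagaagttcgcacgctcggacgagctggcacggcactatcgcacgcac
Klf10, chr15:38296079-38296618, minus strand: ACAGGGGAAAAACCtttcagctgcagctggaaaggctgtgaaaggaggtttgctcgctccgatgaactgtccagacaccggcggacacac
Klf9, chr19:23142256-23164768, plus strand: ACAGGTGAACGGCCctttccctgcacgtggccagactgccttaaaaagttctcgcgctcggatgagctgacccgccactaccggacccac
Sp1, chr15:102430063-102430152, plus strand: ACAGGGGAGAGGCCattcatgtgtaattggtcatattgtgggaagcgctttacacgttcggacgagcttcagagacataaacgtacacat
The motif occurred in frame in 736 of 21901 coding sequences (3.36%), so it is not limited to these 10 genes. Over the 10 stretches 32 of the 90 positions held the same base in every gene. Klf1 and Klf2 shared 72 of 90 bases (80.0%), the highest identity among the 45 pairs, and Klf1 and Sp1 shared 47 (52.2%), the lowest. Sp1 shared between 52.2% and 61.1% with the Kruppel-like factors, while the 5 Sin3-binding factors shared between 64.4% and 78.9% with each other. Neither range is particular to its group. Klf6 shared 54.4% with Klf9 and 56.7% with Klf13, and Klf1 shared 77.8% with Klf11 and 74.4% with Klf16. Reads divided among similar genes would give counts that are not whole, and the expected counts of all 10 genes were whole numbers in both libraries, within 0.01. Of the 31-base words in M21 transcripts, 4.53% of those of Klf3 and 1.36% of those of Sp1 also occur in another gene, and for the other 8 genes the share was under that of Sp1, with none for Klf1, Klf2, Klf6, Klf9 and Klf16.

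The levels formed a steep gradient headed by Klf1. They are given in TPM, the abundance of transcripts corrected for their length and relative to the whole library, as mean ± SD over the 2 libraries (n = 2). Of the 10 genes 7 reached 1 TPM in each library, the threshold used for detection, against 20.0% of all protein-coding genes. Above 5 TPM in both were 5 of the 10, against 9.23%. Among them, Klf11 and Klf13 would not pass with the length of the longest transcript for the whole gene. On that scale Klf11 stood at 4.89 and 5.98 TPM and Klf13 at 2.62 and 3.49, and the share over all genes was not recomputed. The 10 genes were chosen with earlier results of these data known, so these contrasts may follow in part from the choice. Of the 16 other Klf and Sp genes 3 passed 1 TPM in both libraries (18.8%). Klf10, Sp1 and Klf9 lay under 1 TPM in both. The order of the 10 genes was the same in the 2 libraries except that Klf10 and Sp1 changed places.

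**Figure D1:**
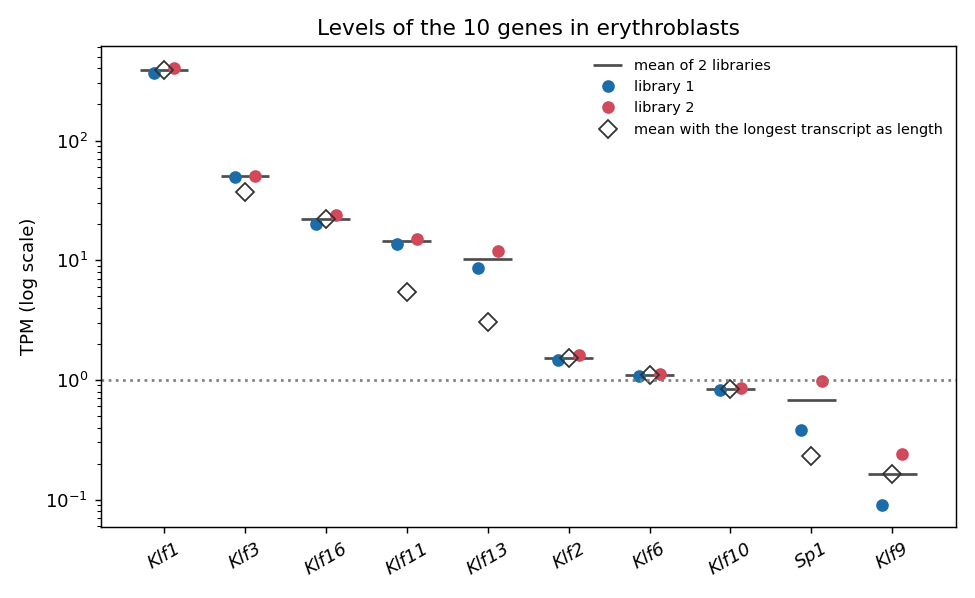
TPM of each gene on a log axis, with a point for each library, a bar for their mean and an open diamond for the mean computed with the longest transcript as the gene's length. The genes run from Klf1 at 386 TPM to Klf9 at 0.165 TPM, and the diamonds fall clearly below the bars for Klf3, Klf11, Klf13 and Sp1.

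Klf1 (ENSMUSG00000054191.7, chromosome 8, 84901928 to 84905291 in mm10) had 50061 counts in library 1 and 43147 in library 2. That corresponded to 367 and 405 TPM, with a mean of 386 ± 26.7. It exceeded 99.7% of protein-coding genes. The share of Klf1 was 79.3% and 79.1% of the summed TPM of the 10 genes, and by counts, which are not corrected for length, 74.5% and 73.7%. Its level was 7.43 and 7.96 times that of Klf3, the next gene in the order. Klf1 has a single transcript in the deposited tables, of 1534 bases, so its length correction is not affected by a choice between transcripts.

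Because Klf1 stands so far above the others, the sequence before its gene is shown. The stretch below is the RefSeq promoter window (GRCm38.p6) up to the base before the first annotated exon in M21.
Klf1, chr8:84901732-84901927, plus strand: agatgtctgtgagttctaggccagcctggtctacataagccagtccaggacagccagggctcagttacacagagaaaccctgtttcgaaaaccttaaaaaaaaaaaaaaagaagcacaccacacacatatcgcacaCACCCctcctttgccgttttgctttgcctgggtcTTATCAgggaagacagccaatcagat
Capitals mark the match to CACCC and the match, on the minus strand, to TGATAA, a form of the site that GATA factors bind. The searches covered both strands of the 250 bases before the RefSeq start, where the CACCC match began 114 bases and the TGATAA match 80 bases before it. Of 32851 promoter windows of that length, 52.0% held CACCC and 7.94% held TGATAA. The other GATA form searched, AGATAA, had 0 matches in the Klf1 window and 1 in that of Sp1, and occurred in 9.99% of windows. The GC box pattern CCGCCC had 0 matches in the Klf1 window and occurred in 32.7% of windows. The longer pattern CCNCNCCC, which can overlap CACCC, had 0 matches in the Klf1 window and occurred in 45.9% of windows. Windows were found for 8 of the 10 genes, and 6 of the 8 held CACCC. In Klf2 and Sp1 every CACCC match lay past the first annotated exon base of M21. For Sp1 that base is the start of the 222-base Sp1-206, which had 0 counts in both libraries. The Sp1 match lay before the start of Sp1-201, the Sp1 transcript with most counts. The Klf3 window, at the start of Klf3-201, had 5 CACCC matches, of which 2 lay before that exon, and 6.92% of all windows had 3 or more. The sequence before the internal start of Klf3-202, the transcript with most Klf3 counts, was not analysed here. These are matches of letters only, and no binding was measured.

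The other activators were near the threshold. Klf2, which in endothelium responds to blood flow and in primitive red cells acts together with Klf1, had 243 and 209 counts. Its level was 1.46 TPM in library 1 and 1.60 in library 2, so Klf1 exceeded it 252 and 253 times. Klf6, an early response gene of many tissues, had 431 and 352 counts, more than Klf2, but at 1.08 and 1.13 TPM it was lower per length, with a transcript of 4217 bases against 1847. The library ranges of Klf2, Klf6 and Klf10, the next gene, did not overlap, though their steps were only 1.35 and 1.42 times for Klf2 over Klf6 and 1.32 and 1.33 times for Klf6 over Klf10.

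Some markers of other cells were as high as Klf2 and Klf6 or higher. All 6 erythroblast markers passed 1 TPM in both libraries, among them Slc4a1, the band 3 anion exchanger (676 ± 122 TPM), Alas2, the first enzyme of heme synthesis in red cells (237 ± 46.8), and Gata1, a master factor of red cells (43.1 ± 8.17). Of 11 markers of leukocytes, hepatocytes, macrophages, megakaryocytes and endothelium 3 passed, and the list summed to 15.5 and 19.4 TPM. Those that passed were Gp9 (8.32 and 10.3 TPM), C1qa (3.47 and 4.53) and Itga2b (1.78 and 2.72). The pass of Itga2b, with 208 and 186 counts, depends on its transcript models. With the length of its longest transcript it would stand at 0.645 and 0.740 TPM, under Klf2 and Klf6. Other markers of the same cell types did not pass. These were Adgre1 (0.04 and 0.03 TPM) and Cd68 (0.61 and 0.89) of macrophages and Pf4 (0.39 and 0.12) of megakaryocytes. The hepatocyte marker Alb had 0.76 and 0.59 TPM. Of the endothelial markers Pecam1 had 2 and 0 counts, Kdr 10 and 0 and Cdh5 38 and 49, and the leukocyte marker Ptprc had 2 and 10. The part of such cells in the levels of Klf2 and Klf6 was not tested. In these bulk samples fewer cells of a type and less RNA per cell cannot be told apart.

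Klf3 was the second most abundant gene of the 10. This factor (ENSMUSG00000029178.10, chromosome 5, 64803388 to 64832901) is a repressor, and its gene is known to be switched on by Klf1 from an internal promoter in red cells. It had 7599 and 6375 counts, or 49.5 and 50.9 TPM (50.2 ± 1.02). It took 10.7% and 9.95% of the TPM of the 10 genes. A non-coding gene on the opposite strand, Gm20033, overlaps 3.59% of its exonic bases, and whether the counting used strand is not given in the sources used here.

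Most Klf3 reads were assigned to a transcript that begins inside the gene. Klf3-202, of 1562 bases, starts 8951 bases after the first base of Klf3-201, at position 64812339, and both have a coding sequence of 1032 bases. The share of Klf3-202 in Klf3 TPM was 80.2% for library 1 and 71.1% for library 2 (75.6% ± 6.43). Its share of expected counts was 72.6% and 61.7%, so it led in both libraries on either measure. Klf3-201 is given 2314 bases in the deposited tables and 5221 in M21, and its share depends on that model. With the length of Klf3-201 for the whole gene, Klf3 would stand at 37.1 ± 1.89 TPM, still second.

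The Sin3-binding repressors spread over a wide range. Klf16 (ENSMUSG00000035397.8, chromosome 10, 80567124 to 80577321), which binds GC-rich sites, followed Klf3 with 5015 and 4657 counts and 20.2 and 24.1 TPM. Klf11, induced early by TGF beta in other cells, had 1835 and 1749 counts and 13.7 and 15.0 TPM. Klf13, which binds CACCC and GC boxes, had 1604 and 1663 counts and 8.63 and 12.0 TPM. Klf10, the second TGF beta inducible member, had 234 and 189 counts and 0.82 and 0.85 TPM. Klf9, a target of glucocorticoids and thyroid hormone, was the lowest of the 10 with 26 and 57 counts, or 0.09 and 0.24 TPM.

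Within this class the library ranges did not overlap between any neighbours. Klf16 exceeded Klf11 1.48 and 1.60 times, and Klf11 exceeded Klf13 1.59 and 1.26 times. Summed over all genes of each class, the Sin3-binding class had 43.5 and 52.2 TPM and the CtBP-binding class (Klf3, Klf8 and Klf12) 49.6 and 50.9 TPM. Klf1 alone was 3.95 and 3.93 times the sum of both repressor classes. These sums use the deposited TPM and were not recomputed with the longest transcript as length. On that scale Klf3, Klf11 and Klf13 are lower and Klf1 is unchanged, so the ratio depends on the transcript models. The other activators (Klf2, Klf4, Klf5, Klf6 and Klf7) summed to 3.99 and 5.77 TPM.

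For Klf11 and Klf13 the TPM rests on short transcript models. In Klf11 the 667-base Klf11-204, whose coding end is not found in the annotation, took 74.5% and 69.8% of TPM but 28.5% and 24.3% of the counts. The full Klf11-201, of 3974 bases, held 71.5% and 75.7% of the counts. In Klf13 the 599-base Klf13-202 took 46.3% and 58.8% of TPM but 11.1% and 14.9% of the counts, and the 6400-base Klf13-201 held 83.7% and 81.8% of the counts. Klf13-202 has 246 coding bases against 867 in Klf13-201. For both genes the leading transcript differs between TPM and counts. With the length of the longest transcript for the whole gene, Klf11 stood at 5.44 ± 0.771 TPM in place of 14.4 ± 0.948, and Klf13 at 3.05 ± 0.613 TPM in place of 10.3 ± 2.35. The order of the 10 genes by mean stayed the same on that scale.

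**Figure D2:**
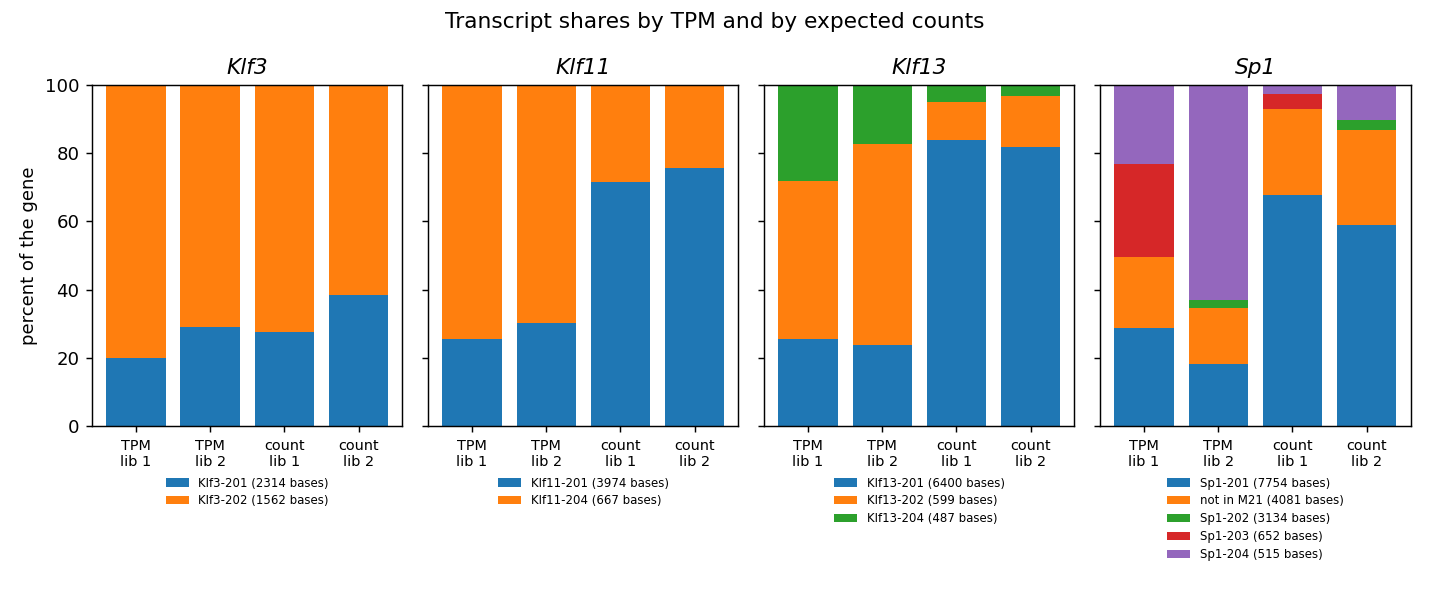
Stacked bars give the percent of each gene that falls to each transcript, by TPM and by expected counts, in both libraries, for the 4 genes with several transcripts. The short transcripts fill most of the TPM bars of Klf11 and Klf13, whereas the longest transcript fills 71.5% to 83.7% of their count bars.

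Sp1 was among the lowest genes. Sp1 (ENSMUSG00000001280.8, chromosome 15, 102406143 to 102436404) had 121 counts in library 1 and 172 in library 2, or 0.38 and 0.97 TPM. Its library range overlapped that of Klf10, so the order of this pair is not resolved. The deposited interval of its TPM ran from 0.380 to 1.03 in library 1 and from 0.883 to 1.91 in library 2, with no stated confidence level. By the deposited posterior mean TPM it averaged 1.015, above Klf10 at 0.835. The 515-base Sp1-204, also without a coding end in the annotation, took 23.1% and 63.1% of Sp1 TPM from 3.22 and 17.6 expected counts. The 7754-base Sp1-201 held 67.8% and 59.0% of the counts. With its length for the whole gene Sp1 stood at 0.162 and 0.296 TPM.

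Among the other Sp genes, Sp2, a relative needed in the early mouse embryo, had 6552 and 4104 counts and 23.9 and 19.5 TPM, near the level of Klf16. Sp2 exceeded Sp1 54.1 and 23.9 times in counts. Sp3, which shares target sites with Sp1, had 1.15 and 1.14 TPM, and Sp4 had 0.15 and 0.18 TPM. Sp6 had 0 and 2 counts and Sp8 had 1 and 2, and Sp5, Sp7 and Sp9 had 0 counts in both libraries. For a gene at 0 the upper limit is 3 counts, which equals 0.0586 and 0.0678 CPM (counts relative to the library total), for counting error only.

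Among the other Kruppel-like factors Klf5, an activator of proliferating epithelium, was detected at 1.22 and 2.51 TPM. Klf4, a factor of myeloid cells and epithelium, had 0.23 and 0.46 TPM from 50 and 75 counts. Klf8, which Klf1 and Klf3 are known to regulate, had 1 count in each library. Klf7 had 3 and 10 counts, Klf15 had 2 and 4, and Klf12, Klf14 and Klf17 had 0 in both. Of the 16 other Klf and Sp genes 6 were compared between the libraries, by the test described below. Higher in library 2 were 2, 1 was higher in library 1, and 3 did not pass, where 44.9% of all genes tested passed. Sp2 differed by a log2 ratio of -0.48 (exact binomial adjusted p = 2.52e-63), Klf5 by 0.87 and Klf4 by 0.77 (exact binomial adjusted p = 4.48e-10 and 0.00882). In all, 3 of these 16 other Klf and Sp genes passed 1 TPM in both libraries, and the 10 genes described held 94.5% and 95.5% of the TPM of the 26. That share, too, may follow in part from the choice of the 10 genes.

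The genes also differ in base composition. GC content, the mean over a gene's M21 transcripts, ran from 47.7% for Klf6 to 61.6% for Klf2, against a median of 49.7% for protein-coding genes. Klf1 had 61.0% and Klf16 60.4%, whereas Klf9 had 49.2%. Spearman's rho of GC content with mean TPM was 0.661 over the 10 genes, which share libraries and depth. The part of base composition in the levels was not tested.

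The libraries were then compared gene by gene, to see which of the 10 levels differ by more than counting error. Counts were scaled for library size, and a two-sided exact binomial test was applied with Benjamini-Hochberg adjustment over 10955 genes. It compares these 2 libraries and not conditions. Of the 10 genes 7 passed an adjusted p of 0.05, against 44.9% of all genes tested, and of these 5 were higher in library 2 (22.4% of all genes) and 2 in library 1 (22.5%). The share called rises with depth, from 27.9% of genes with 10 to 100 counts to 88.1% of those with 10000 or more. The median absolute log2 ratio of the 10 genes was 0.11, and 0.38 over all genes tested, where it ran from 0.74 for genes with 10 to 100 counts to 0.17 for those with 10000 or more.

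Klf9 and Sp1 differed most. Klf9 stood at 0.511 CPM in library 1 and 1.28 CPM in library 2, a log2 ratio of 1.31 (95% interval 0.63 to 2.05, exact binomial adjusted p = 0.00028). For Sp1 the values were 2.38 and 3.86 CPM, a log2 ratio of 0.70 (0.35 to 1.05, exact binomial adjusted p = 0.000187). Klf13 followed with 31.5 and 37.3 CPM and a log2 ratio of 0.24 (exact binomial adjusted p = 9.57e-06). The intervals cover counting error only. Of the 6 erythroblast markers 4 were higher in library 2 and 2 in library 1. Among 10 tested markers of other cells these numbers were 1 and 3. Over all genes tested, 22.4% were higher in library 2 and 22.5% in library 1. All 6 erythroblast markers had 10000 or more counts over both libraries, a depth at which 88.1% of genes were called. The marker numbers thus show nothing particular to the markers. The part of cell makeup in the differences of Klf9, Sp1 and Klf13 was not tested.

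The abundant genes differed little. Klf1 had 984 and 969 CPM, a log2 ratio of -0.023 (exact binomial adjusted p = 0.0318), and Klf3 149 and 143 CPM, a log2 ratio of -0.062 (exact binomial adjusted p = 0.027). Neither passed when libraries were scaled by total counts (exact binomial adjusted p = 0.741 and 0.141). Klf16 and Klf11 were higher in library 2 by log2 ratios of 0.084 and 0.12 (exact binomial adjusted p = 0.0117 and 0.0292). Klf2, Klf6 and Klf10 did not pass, and their 95% intervals together ran from -0.40 to 0.25.

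The direction of the small differences depends on the unit. By TPM all 10 genes were higher in library 2, but the median log2 TPM ratio over the tested genes was itself 0.15. Klf1, with a log2 TPM ratio of 0.14, and Klf3, with 0.041, were under that shift, Klf1 only slightly. Klf11, higher in library 2 by counts, was also slightly under it by TPM (0.13). Klf2, Klf6 and Klf10, which did not pass by counts, were under it too. Klf9 (1.42), Sp1 (1.35), Klf13 (0.47) and Klf16 (0.25) were above it. Globin genes took 86.0% of TPM in library 1 and 84.4% in library 2, and the part of that difference in the shift was not tested.

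**Figure D3:**
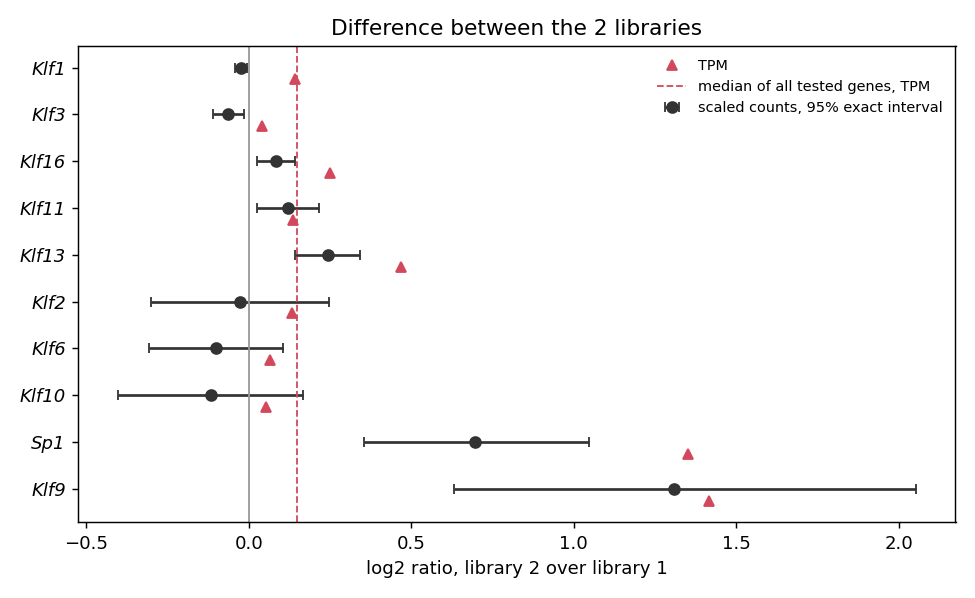
Log2 ratio of library 2 over library 1 for each gene, with points and 95% exact intervals from scaled counts and triangles from TPM. Klf9 and Sp1 lie far to the right on both scales, and the TPM triangles of the other 8 genes lie between 0.041 and 0.47, on both sides of the dashed line, the median of all tested genes at 0.15.

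Genes that work with the Kruppel-like factors were examined as lists. Counts of list genes that differed between the libraries stand against 44.9% of all genes tested, 22.4% higher in library 2 and 22.5% in library 1. Of 11 corepressors 7 passed 1 TPM in both libraries. Ctbp1, the CtBP protein that Klf3 recruits, led at 53.5 and 54.0 TPM, close to Klf3 itself. It exceeded its copy Ctbp2 by 75.3 and 96.4 times, but the size of that ratio is uncertain. Ctbp2 had 0.71 and 0.56 TPM from 123 and 86 counts. Both values lay under their deposited intervals, of 0.835 to 1.35 and 0.748 to 1.29. The deacetylase Hdac1 (9.0 ± 0.537 TPM) and the Sin3 complex subunit Suds3 (8.1 ± 0.537) followed Ctbp1. Sin3b had 2.97 and 4.91 TPM and Sin3a 0.64 and 0.89, and Fhl3, a partner of Klf3 in muscle, was lowest at 0.07 ± 0.0283. Of the 11 corepressors 1 was higher in library 2 and 4 in library 1, a share near that over all genes, and the ratio of Ctbp1 was -0.15 on the log2 scale (exact binomial adjusted p = 1.03e-12).

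Of 7 coactivators 6 passed, led by the SWI/SNF remodelling subunits Smarcb1 (34.4 ± 2.76 TPM), Smarca4 (11.9 ± 0.46) and Smarcc1 (3.91 ± 0.0141). The lead of Smarcb1 depends on its transcript models. With the length of the longest transcript it would stand at 4.98 ± 0.329 TPM, under Smarca4 at 11.3 ± 0.548. The acetyltransferase Kat2b was lowest at 0.285 ± 0.0354 TPM. Higher in library 2 was 1 coactivator and in library 1 were 2. Of 7 genes for protein turnover and modification 3 passed. Among these was the ubiquitin ligase Siah1a (1.16 ± 0.219 TPM), and the ligase Smurf1 was lowest of the list at 0.01 TPM with 4 counts in each library. Of the 6 tested 1 was higher in library 2 and 3 in library 1.

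Genes described as targets of Klf1 were high as a group. The list was chosen with earlier results of these data known and shares Alas2, Slc4a1 and Hbb-bs with the erythroblast markers. Its high level may thus follow from the choice, and the activity of Klf1 was not tested. Of 22 on the list 21 were analysed here and 19 passed 1 TPM in both libraries, with a median of 38.8 TPM against 0.02 for all protein-coding genes. The beta globin genes Hbb-bs and Hbb-bt led, and their split is uncertain since they are near-identical copies, followed by Slc4a1. Cd44, an adhesion receptor, and Bcam, a blood group antigen, did not pass, and Bcam was lowest with 1 and 5 counts. Between the libraries 9 of the 20 tested targets were higher in library 2 and 8 in library 1, with a median log2 ratio of 0.07, against -0.01 over all genes tested. The share called was 67.2% of all genes with 1000 to 10000 counts and 88.1% of those with more, and these counts show nothing particular to the targets.

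Genes of pathways known to induce other members were examined last. Their median levels were 0.165 TPM for TGF beta, 0.28 for glucocorticoid and 0.78 for Mek5-Erk5 genes, against 0.02 for all protein-coding genes. Of 9 TGF beta signalling genes only the ligand Tgfb1 passed 1 TPM in both libraries, at 24.3 ± 0.58. The corepressor Ski (0.505 ± 0.0778 TPM) and the mediator Smad4 (0.23 ± 0.0424) came next. Smad4 had 0.20 and 0.26 TPM but 62 and 15 counts, so its direction between the libraries depends on the unit. The receptor gene Tgfbr2 was lowest at 0.015 ± 0.00707, with 8 and 3 counts. Of the 9 genes 1 was higher in library 2 and 3 in library 1. Of 6 glucocorticoid genes the phosphatase Dusp1 (110 and 145 TPM) and the clock gene Per1 (1.49 and 1.66) passed, and the receptor Nr3c1 had 0.25 and 0.34 TPM. Sgk1 was lowest at 0.02 and 0.04 TPM. Higher in library 2 were 4 of these 6 genes (Dusp1, Per1, Nr3c1 and Tsc22d3), with log2 ratios from 0.23 to 1.64, and 0 were higher in library 1; with 6 genes chosen with results known, this is a description beside the 22.4% and 22.5% of all genes. Of 6 genes of the Mek5-Erk5 pathway, which induces Klf2, 3 passed, namely Mef2d (2.71 and 4.05 TPM), the kinase Mapk7 (1.59 and 1.91) and Map2k5 (1.48 and 1.25), with Mef2c at 4 and 0 counts. Of the 5 tested 1 was higher in library 2 and 1 in library 1.

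**Figure D4:**
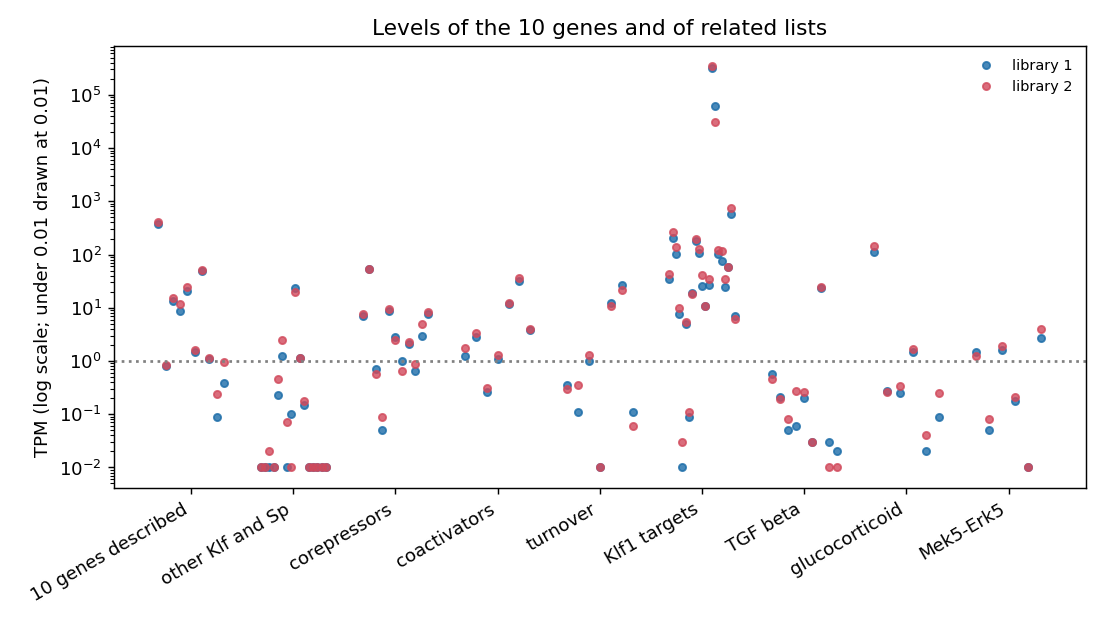
TPM of every gene of each list on a log axis, with a point for each library and values under 0.01 drawn at 0.01. The Klf1 targets sit mostly above 1 TPM (19 of 21), whereas 8 of 9 TGF beta genes and 13 of 16 other Klf and Sp genes sit below it in at least 1 library.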

How the data were processed

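Poly(A)-selected RNA of 2 erythroblast libraries was aligned to mm10 with GENCODE M4, as stated in the deposited listing; which aligner, quantifier and strand setting were used is not given in the sources used here. Deposited expected counts divide shared reads and need not be whole; they were rounded for tests. The authors' TPM and posterior mean TPM have the same sum in each library, and the deposited FPKM values served as an alternative. The deposited percent of a gene's TPM per transcript gave the transcript shares (genes of at least 50 counts per library), and the deposited interval bounds are named where printed.

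Symbols, positions and sequences came from GENCODE M21 and RefSeq tables of the same assembly. Counts were scaled by TMM factors of edgeR 4.0.16 (R 4.3.3), 0.993 and 1.01, and tested with scipy 1.17.1 on genes with 10 or more counts in all. Log2 ratios used a pseudocount of 0.5 counts. The test was tried on simulated counts that held counting error alone. That trial cannot show how the test behaves where libraries vary beyond counting error. The TPM on the longest transcript divides a gene's counts by that transcript's effective length.

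The members and lists were chosen with earlier results of these data known. Named were all members, all other Klf and Sp genes and, of each list, the 3 highest and the lowest by mean TPM, of which some are left out of the text; others, such as Sin3a, Sin3b, Ctbp2, Cd44 and Tsc22d3, were chosen after their values were seen. Alternatives tried were total counts or DESeq2 1.42.0 factors, other minima and pseudocounts, other units, and each library alone.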

Additional observations from a re-analysis of the deposited data

How the results depend on the processing

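The 7 detected genes among the 10 became 8 at 0.5 TPM or 1 FPKM and 5 at 5 TPM. They remained 7 in number with posterior mean TPM, with either library alone and, at 1 TPM, on the longest transcript. Klf11 and Klf13 did not reach 5 TPM in both libraries on the longest transcript. Of the other Klf and Sp genes 1 passed at 5 TPM, where 3 passed at 1 TPM. Klf1 took 79.2% of the TPM of the 10 genes, 79.1% to 79.3% in single libraries, 74.1% by expected counts, and, in alternatives added after the data were seen, 84.4% on the longest transcript and 75.3% of all 26 genes. The number of the 10 genes called between the libraries was 7, and 5 with total counts, where Klf1 and Klf3 no longer passed. By TPM the log2 ratios of Klf1 (0.14) and Klf3 (0.0414) had the opposite sign. The shares of expected counts were 67.1% for Klf3-202, 26.4% for Klf11-204, 13.0% for Klf13-202 and 6.45% for Sp1-204, against TPM shares in single libraries of 71.1% to 80.2%, 69.8% to 74.5%, 46.3% to 58.8% and 23.1% to 63.1%. The length correction weights short transcripts more, by its construction. On the longest transcript, also added after the data were seen, the mean levels of Klf3, Klf11, Klf13 and Sp1 were 37.1, 5.44, 3.05 and 0.229 TPM. The levels of Klf9 and Sp1 rest on which library is read, with 0.09 and 0.24 TPM for Klf9 and 0.38 and 0.97 TPM for Sp1, and by posterior mean TPM Sp1 stood at 1.015 TPM, above Klf10 at 0.835. Depth limits Klf9 most, with 26 and 57 counts. No paired analysis was possible because there was 1 group.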
